A study of Homo sapiens with 18 samples.

Results

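Of the 25159 MAX peaks in the list for cells with the 7A form of MYC, 411 (1.63%) shared no base with any peak of the list for wild-type (WT) MYC or of the list for the 3A form. These 411 regions, called the 7A-alone peaks here, were chosen by that absence of a partner, so the absence itself is a description and not a result. Of the other 7A peaks, 23275 touched a peak in both lists, 1029 touched a WT peak and no 3A peak, and 444 touched a 3A peak and no WT peak. The 3A and WT lists held 27294 and 34622 peaks, of which 801 and 7943 had no partner in either other list.

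The cells were U2OS, a human osteosarcoma line, with the MYC gene knocked out and a doxycycline-inducible (Tet-On) MYC transgene in its WT, 3A or 7A form, so that every group lacked endogenous MYC. Cells of each form were kept for 24 h with 1 µg/ml doxycycline or without it (labelled PBS), and 10% mouse NIH3T3 fibroblasts were mixed in as an external reference (ChIP-Rx). Each of the 6 combinations of form and treatment had 2 MAX immunoprecipitation libraries and 1 input, 18 libraries in all. The samples' antibody label gives MAX, whereas their protocol describes immunoprecipitation against the FLAG tag. The labels do not say which residues the 3A and 7A forms change, nor whether a line is 1 clone. The deposited data are 1 peak list for each form, with 1 value per peak. Nothing in a list separates treated from untreated cells or replicate from replicate, so no value below has a replicate error and no difference between the forms could be tested. A missing partner means that no peak was called there in the other list, not that MAX signal was measured as absent.

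MAX is a small basic helix-loop-helix leucine zipper protein and the obligate partner of MYC. MYC binds DNA as a heterodimer with MAX, on E-boxes, of which CACGTG is the canonical form. Related forms are CATGTG and CACGCG, along with CATGCG, then CACGAG and CAACGTG. MAX also pairs with itself, with the MXD proteins, MNT and MGA, so a MAX peak need not hold MYC. In proliferating cells most MYC and MAX binding lies at active, CpG-rich promoters.

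The promoters under the strongest 7A-alone peaks show how unlike each other these sites are in letters. Of the 35116 promoter windows in the RefSeq table (GRCh38.p14, 250 bases before to 50 after a gene start), 29 held the summit of a 7A-alone peak, from 28 peaks. Printed here are the 250 bases before the start for the 6 strongest of them, 5′ to 3′ on the strand of the gene, with the 6 E-box forms in capitals on either strand. They are shown because their fold enrichments, from 19.5 down to 11.6, put them among the 38 strongest of the 411, and because the E-box content runs from 2 forms to none.
TDRD9, chr14:103928206-103928455, plus strand: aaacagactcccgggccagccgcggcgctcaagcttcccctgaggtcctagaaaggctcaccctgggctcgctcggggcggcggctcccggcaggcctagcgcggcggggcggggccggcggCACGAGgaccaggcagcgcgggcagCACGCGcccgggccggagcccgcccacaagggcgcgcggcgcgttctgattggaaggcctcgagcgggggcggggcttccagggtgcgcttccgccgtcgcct
LOC107985500, chr21:39788490-39788739, minus strand: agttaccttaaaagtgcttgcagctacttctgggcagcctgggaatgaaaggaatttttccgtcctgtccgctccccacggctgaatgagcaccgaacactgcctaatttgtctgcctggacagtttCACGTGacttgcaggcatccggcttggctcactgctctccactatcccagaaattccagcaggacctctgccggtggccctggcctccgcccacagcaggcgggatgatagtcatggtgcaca
LINC02530, chr6:12585405-12585654, minus strand: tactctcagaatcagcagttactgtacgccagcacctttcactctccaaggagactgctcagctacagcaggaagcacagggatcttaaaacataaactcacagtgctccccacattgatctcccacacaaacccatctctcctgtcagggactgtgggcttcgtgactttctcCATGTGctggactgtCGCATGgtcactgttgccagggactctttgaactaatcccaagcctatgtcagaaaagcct
APLP1, chr19:35868324-35868573, plus strand: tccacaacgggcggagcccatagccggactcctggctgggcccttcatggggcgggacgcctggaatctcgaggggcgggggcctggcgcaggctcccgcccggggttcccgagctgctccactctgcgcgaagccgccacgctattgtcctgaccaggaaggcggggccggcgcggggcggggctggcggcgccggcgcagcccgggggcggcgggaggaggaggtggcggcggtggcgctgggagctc
TRIM2, chr4:153257129-153257378, plus strand: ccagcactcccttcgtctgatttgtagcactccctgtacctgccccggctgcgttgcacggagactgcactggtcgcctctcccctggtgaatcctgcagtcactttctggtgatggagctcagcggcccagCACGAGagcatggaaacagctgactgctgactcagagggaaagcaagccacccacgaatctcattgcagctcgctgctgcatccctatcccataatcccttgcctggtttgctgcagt
PCDH18, chr4:137532495-137532744, minus strand: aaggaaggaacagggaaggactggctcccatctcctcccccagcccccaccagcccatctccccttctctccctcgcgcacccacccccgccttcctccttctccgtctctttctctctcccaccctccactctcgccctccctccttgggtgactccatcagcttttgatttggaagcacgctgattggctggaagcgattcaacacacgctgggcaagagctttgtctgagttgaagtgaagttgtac
Counted from the first printed base, the summit lay at base 137 in TDRD9, between a CACGAG at base 123 and a CACGCG at base 148. In LOC107985500, a noncoding locus, it lay at base 151, after the canonical CACGTG at base 128. In LINC02530, also noncoding, it lay at base 172, just before CATGTG at base 175 and CGCATG at base 190. The TRIM2 summit, at base 49, was 86.5 bp from the middle of its only E-box form. The APLP1 and PCDH18 windows held none of the 6 forms, and no CANNTG word, which takes in CACGTG and CATGTG, either. No match says only that these letters are absent from the window.

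The 7A-alone peaks were weak and narrow within their list. Fold enrichment, the authors' ratio of immunoprecipitated signal to background at the summit, had a median of 7.02 (95% interval of the median 6.78 to 7.34), with quartiles of 5.34 and 8.90 and a range of 2.84 to 22.8. Over all 7A peaks the median was 11.1. The median width was 339 bp (326 to 356, range 209 to 1357), against 672 bp for the whole list. The authors' −log10 q had a median of 30.3, against 91.0 for all 7A peaks. No 7A-alone peak was among the 5000 strongest of the list by −log10 q, 3 were among the 10000 strongest, and 347 (84.4%) were in the lowest 25%. None of them stood at the list's own limit: the lowest −log10 q was 9.73, while the list reached down to 5.69, and 16 7A peaks with a partner lay below the weakest 7A-alone peak.

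Peaks with a partner in only 1 of the other lists had similar median folds. The median fold enrichment was 7.15 for 7A peaks with a 3A partner only and 7.34 for those with a WT partner only, and their median widths were 380 and 362 bp. Peaks with both partners stood apart at a median fold of 11.6 and a width of 709 bp. The peaks found in the 3A list alone had a median fold of 6.89 and a width of 316 bp in their own list, and those in the WT list alone 7.54 and 323 bp. Folds of different lists are not on a shared scale and are given side by side only.

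**Figure D1:**
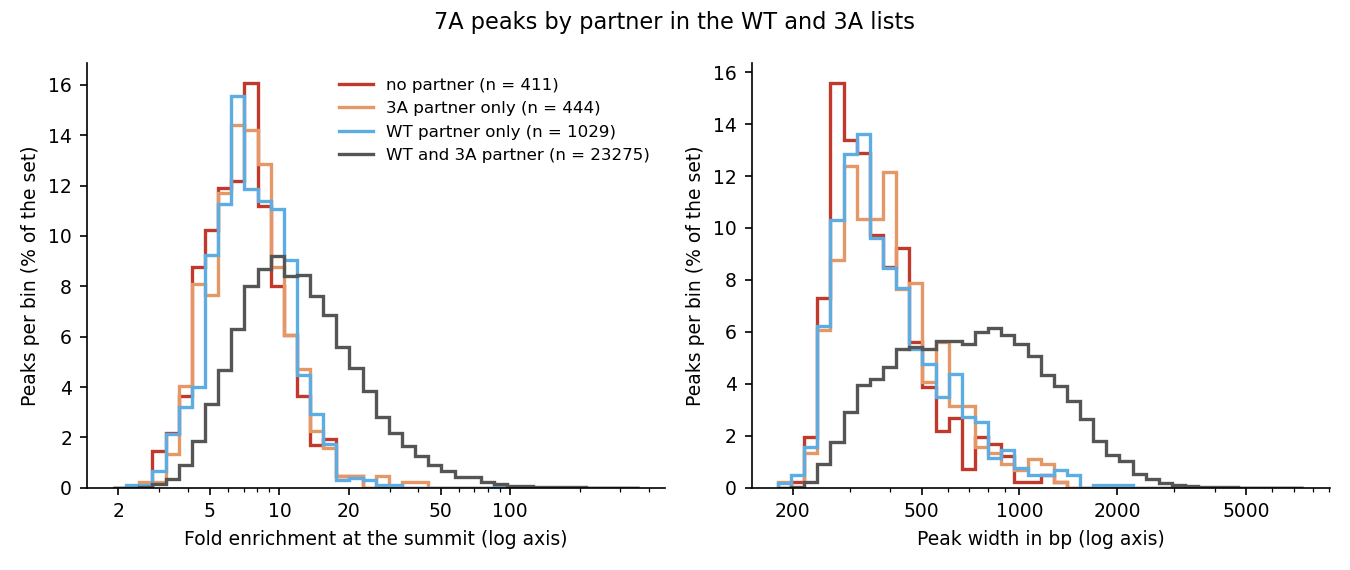
Distribution of fold enrichment at the summit (left, log axis) and peak width in bp (right, log axis) for 7A peaks by partner, as percent of each set per bin. The peaks with no partner (n = 411) and those with a single partner overlap at medians near 7 and under 400 bp, while peaks with both partners are shifted to 11.6 and 709 bp.

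The depth behind these folds was small. Fragment coverage at the summit could be solved from the deposited fold and −log10 p for 329 of the 411 (80.05%), and for 95.5% of all 7A peaks. The median was 65 fragments (95% interval 62 to 67) over a background of 8.38, against 144 over 12.1 for all 7A peaks. Solved peaks with a 3A partner only had 79 (77 to 83), and those with a WT partner only 68 (67 to 71). Coverage ran from 26 to 174 fragments among the solved 7A-alone peaks, and the peak of highest fold, in HRH1, was not solved. For 9 of the 329 the background was at the lowest value of the list, 2.70, so that their folds rest on a floor. Among solved peaks, the strongest folds came with low backgrounds more than with high coverage. Of the 13 7A-alone peaks with a fold over 15, those in HRH1, FRS2 and NUDT6 and the one at SCHIP1 were not solved. The solved ones had a median coverage of 89 fragments over 4.45. Solved peaks of the same band with both partners had 270 over 11.0.

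The share of 7A peaks without a partner fell with strength from band to band. It was 5.99% at a fold up to 5 (79 of 1320 peaks), 3.33% from 5 to 7.5 (155 of 4656), 2.21% from 7.5 to 10 (109 of 4927), 0.869% from 10 to 15 (55 of 6331) and 0.164% above 15 (13 of 7925). By width it fell from 5.34% under 400 bp through 1.78% to 0.275% over 600 bp. By coverage it was 17.05% under 50 fragments, 6.07% from 50 to 75, and 0.454% over 75. Because the members were selected on called peaks, these shares are descriptions of the selection.

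**Figure D2:**
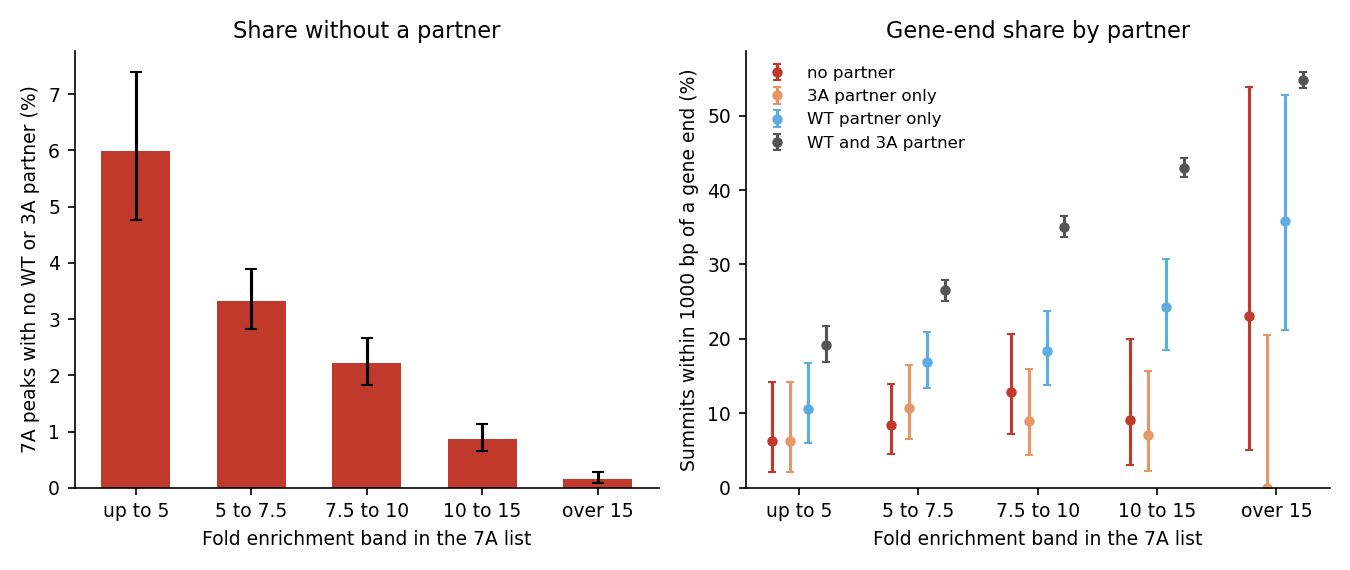
Left, percent of 7A peaks with no partner in each band of fold enrichment. Right, percent of summits within 1000 bp of the end of a protein-coding gene, by band and partner. Bars and points are shares and error bars are 95% Clopper-Pearson intervals. The share without a partner falls from 5.99% to 0.164%, and peaks with no partner lie below those with both partners at gene ends in every band, with overlapping intervals over 15.

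Where the 7A-alone peaks lie was not used to choose them. Only 40 of the 411 summits (9.73%, 95% interval 7.04 to 13.0) lay at most 1000 bp from the start or end of a protein-coding gene, against 39.6% of all 7A peaks. A further 181 (44.0%) lay inside protein-coding genes and 190 (46.2%) outside them, against 30.2% each over the list. The median distance from a summit to the nearest gene end was 28938 bp, and 5203 bp for all 7A peaks. Counting only annotated starts, of coding and noncoding genes together and without chromosome 8, the shares were 13.6% (54 of 397) and 41.9%. When each position was moved by 20000 bp to either side, 2.80% (1.78 to 4.17) of the 7A-alone positions fell at a gene end, so the measured 9.73% was above the level of their surroundings.

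Partner class went with position. Peaks with both partners were at gene ends in 41.6%, those with a WT partner only in 18.6% (16.2 to 21.1), and those with a 3A partner only in 8.56% (6.13 to 11.6). The 7A-alone share overlapped that of the 3A-only class and lay below the WT-only class without overlap of intervals. Within each band of fold, and under 400 bp, the 7A-alone and WT-only intervals overlapped (7.14%, 4.36 to 10.9, and 12.4%, 9.89 to 15.3, under 400 bp). It also overlapped the share of the 3A-alone peaks, 10.25% (8.24 to 12.6), and that of the WT-alone peaks, 8.64%. A low gene-end share is thus common to the unpartnered peaks of all 3 lists.

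The difference from peaks with both partners remained within bands of strength. At folds of 5 to 7.5 the gene-end share was 8.39% (4.54 to 13.9) for 7A-alone peaks and 26.5% (25.2 to 27.9) for those with both partners, and at 7.5 to 10 it was 12.8% against 35.05%. Width narrowed the gap: under 400 bp the shares were 7.14% (4.36 to 10.9) and 13.8% (12.7 to 14.9). At folds of 5 to 10 and under 400 bp they were 6.55% (3.31 to 11.4) and 13.3% (11.9 to 14.8), without overlap. Restricted to peaks under 400 bp with 50 to 75 fragments, they were 7.37% (3.01 to 14.6) and 14.9% (12.2 to 18.0), with overlapping intervals. Depth and width thus moved with this result, and their part in it was not tested beyond these bands.

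Noncoding genes took a similar number of members. A lncRNA gene end was within 1000 bp of 39 summits (9.49%), against 14.1% over the list. A miRNA gene and a tRNA gene were each near 1 of the 411 summits (0.243%), against 0.680% and 0.409% over the list. Genes of snoRNAs were near 0 of 411, which allows a share of up to 0.894%, against 0.147% over the list. By chromosome, the share of 7A peaks without a partner was lowest on chromosome 19 (0.555%, 7 of 1262, interval 0.223 to 1.14) and highest on chromosome 13 (2.31%, 11 of 477, interval 1.16 to 4.09). Those 2 intervals do not overlap, but the pair was picked after its values were seen, and chromosome 1 held the most 7A-alone peaks, 45.

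The 10 strongest 7A-alone peaks were mostly inside genes. The strongest, at chr3:11139935-11140264 in HRH1, the gene of the histamine H1 receptor, had a fold of 22.8 and the highest −log10 q of the set, 145.7, though still rank 8128 of the list. MEGF6 followed at chr1:3504159-3504450 with a fold of 20.9, from 89 fragments over a background of 3.31. FRS2, an adaptor of fibroblast growth factor receptors, held a fold of 18.3 at chr12:69534502-69534863. ABCC5, a transporter that exports cyclic nucleotides, held 17.0 at chr3:183975948-183976231, and SRGN, the proteoglycan serglycin, 16.7 at chr10:69093114-69093608. The peak in NXPH2, a secreted ligand of neurexins, was the deepest of the 10 with a solved coverage (142 fragments, fold 16.9, chr2:138777999-138778390) and lay 869 bp from a WT peak. NUDT6, of the Nudix hydrolase family, held 16.8 at chr4:122914976-122915249. The other 3 of the 10 were at gene ends. All 10 lay outside contact with a WT or 3A peak by at least 869 bp, and the 9 besides NXPH2 by at least 2237 bp.

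Those 3 gene-end peaks were at the starts of TDRD9, SCHIP1 and PAK6. TDRD9 is a helicase of the piRNA pathway that silences transposons in the male germ line. Its peak, chr14:103928206-103928498, had a fold of 19.5 from 81 fragments over 3.20, with the summit 114 bp before the gene's first base and the nearest WT and 3A peaks 6383 and 6395 bp away. SCHIP1 encodes a binding partner of the NF2 product schwannomin, and its peak (chr3:159273721-159273985, fold 17.0) was 73106 bp from any WT peak and 452227 bp from any 3A peak. PAK6 is a p21-activated kinase. Its peak was one of the wider ones, 825 bp at chr15:40238559-40239383, with a fold of 16.5 from 89 fragments over 4.45, and the nearest WT peak was 27408 bp away. At these 3 genes neither the WT nor the 3A list held a peak at either gene end.

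The other gene-end peaks are grouped by the known roles of their genes, which were not tested as themes. APLP1, a relative of the amyloid precursor protein, had a fold of 13.3 at its start and PCDH18, a protocadherin, 11.6. FLRT2, a transmembrane protein of cell adhesion and axon guidance, had 9.53 over an unusually wide 1102 bp, and GRIA3, a subunit of AMPA glutamate receptors, 7.57. The GRIA3 fold came from 27 fragments over the lowest background of the list, 2.70. The PCDH18 peak was 21282 bp from a WT peak and 709313 bp from a 3A peak, and the GRIA3 peak was 547385 and 547773 bp from them. The APLP1 peak was different in kind: it lay 217 bp from a WT peak, and the gene's ends also held a WT peak of fold 9.32, a 3A peak of 7.40 and another 7A peak of 15.9. GRM2, a metabotropic glutamate receptor, and FSTL5 stood lower, at 5.92 and 5.19.

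Genes of signalling and metabolism included SGSM2, a regulator of Rab GTPases, at 13.8, RAP1GAP2, a GTPase-activating protein for Rap1, at 8.89, and the kinase gene STK32A at 8.01. SLC16A3, the lactate exporter MCT4, had a fold of 9.61 with the summit 101 bp from its start and 107 fragments over 10.24, and no WT or 3A peak within 3282 bp. SPTLC3, a subunit of serine palmitoyltransferase, had 7.34 with the summit 22 bp from an outer end of the gene. A single peak of fold 7.52 lay inside DBH, which makes noradrenaline, within 1000 bp of the end of transcription both of DBH and of its neighbour SARDH, an enzyme of sarcosine breakdown. The SGSM2 peak lay 279 bp from a WT peak of fold 65.6. That WT peak spanned the gene's start, with its summit more than 1000 bp from it. The gene's ends held a 3A peak of 35.9 and another 7A peak of 18.05.

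Transcription and chromatin genes were PRDM16, a regulator of brown fat, at 8.75, EPC2, of the enhancer of polycomb family, at 8.54, and TCF15, a helix-loop-helix factor of somites, at 8.31. ZNF775 followed at 7.18, H2BC17, a replication-dependent histone H2B gene, at 7.04, and SNAI1, a repressor that itself binds E-boxes, at 6.42. The SNAI1 peak lay 602 bp from a WT peak, and the gene's ends held peaks of fold 53.9 in WT, 33.8 in 3A and 26.8 in 7A. TCF15 held no other gene-end peak in any list. PRDM16 had a WT gene-end peak of 10.8 and no 3A one, and the nearest WT peak was 1015 bp from the 7A-alone peak.

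The remaining peaks of the 25 strongest gene-end ones were at 7 genes of mixed roles. SPATA22, needed for meiotic recombination, had 11.1, 890 bp from its start. MUC17, a membrane mucin of the gut, had 10.6 at its end of transcription and CNFN, cornifelin of the cornified skin, 8.11. SOWAHA had 9.45 with the summit 23 bp from its start, MICALL2, a Rab effector at cell junctions, 8.57, OLFML2A 8.00 and RBMS3, an RNA-binding protein, 7.68. The other 15 gene-end peaks had folds of 7.02 (CBR3, a carbonyl reductase) down to 4.28 (FLNC, the muscle filamin). The MICALL2, OLFML2A and CBR3 peaks lay 199, 890 and 174 bp from a WT or 3A peak. The ends of these genes held WT peaks of 10.4, 11.8 and 11.5 and 3A peaks of 11.3, 8.05 and 6.07. They also held other 7A peaks of 6.74, 7.02 and 5.69.

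**Figure D3:**
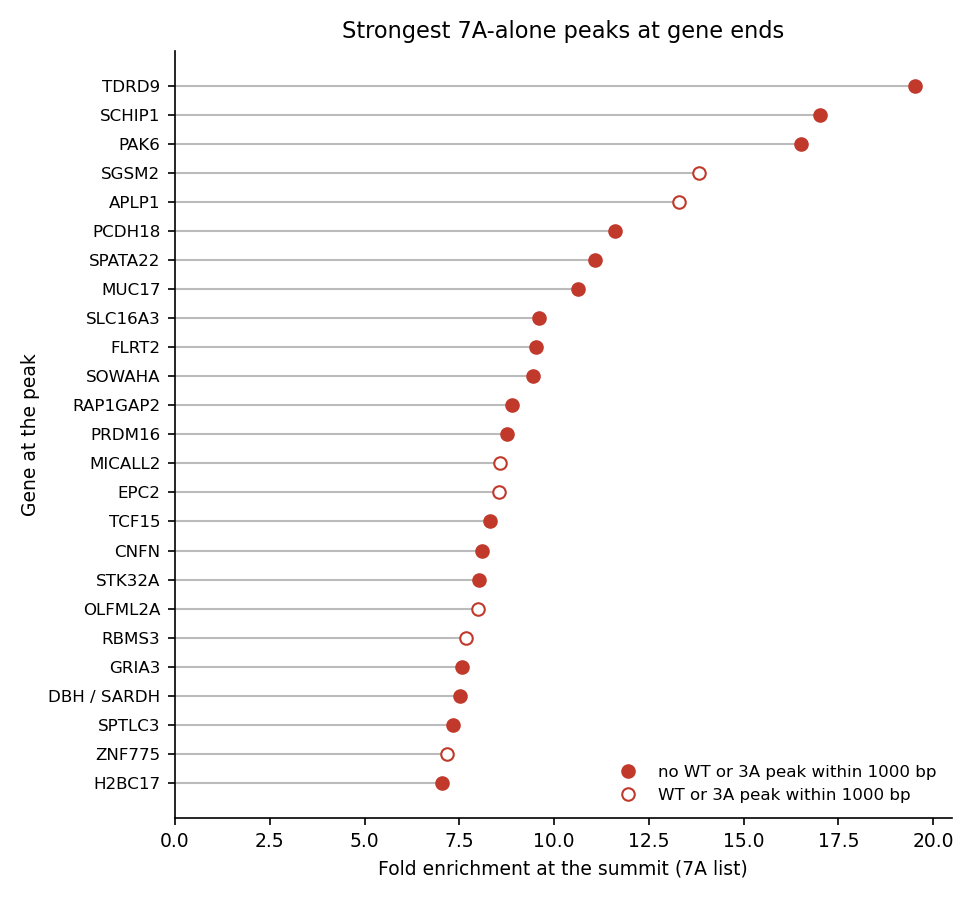
Fold enrichment at the summit for the 25 strongest 7A-alone peaks within 1000 bp of a protein-coding gene end, 1 point per peak. Filled points have no WT or 3A peak within 1000 bp and open points have such a peak. TDRD9, SCHIP1 and PAK6 lead at 19.5, 17.0 and 16.5, and 7 of the 25 points are open, among them SGSM2 and APLP1.

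In all, the 40 gene-end peaks belonged to 41 genes. Of these, 29 had no WT and no 3A summit within 1000 bp of either end. A peak in both lists was at 9, and 11 and 10 had a WT and a 3A peak. These counts go by summits, so a peak that reaches a gene end with its summit farther off is left out. Among the 29, the FLNC, PSTPIP1 and RBMS3 peaks lay only 243, 217 and 571 bp from a WT peak. Another 7A peak was at the ends of 9 of the 41 genes. By the RefSeq starts, 24 of the 40 peaks were at a start of transcription, 7 at an end, and 9 were at a gene with no start in the table. Over all 19974 protein-coding genes, 10934 had a 7A peak at an end and 55 had one in the 7A list with none in WT or 3A. Peaks at gene ends had a median fold of 7.62 (6.85 to 8.57), against 6.85 inside genes and 6.98 outside, with overlapping intervals, and a median width of 410 bp (312 to 469), against 354 and 323 bp.

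The 11 gene lists, of 301 genes, are described beside the counts over all genes. Over all genes 0.205% had a 7A-alone peak at an end and 54.7% had any 7A peak there, and 193 of the 19974 genes held a 7A-alone peak inside them, where 7836 held any 7A peak. Among 32 germline and piRNA genes, TDRD9 was the only one, while 11 had any 7A peak at an end. Of 35 other E-box binding factors, SNAI1 had one at an end and NPAS2, the CLOCK relative, one inside (5.80), and 25 had any 7A peak at an end. LAMA5, of 36 matrix and adhesion genes, and NRXN2, of 33 neuronal genes, each held one inside, with folds of 4.93 and 4.41. The NPAS2 and LAMA5 peaks lay 387 and 524 bp from WT peaks of fold 6.25 and 11.8. Those WT peaks touched other 7A peaks, of 6.99 and 13.25.

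None of 6 further lists held a 7A-alone peak at a gene end or inside a gene. Over all genes 0.205% had one at an end and 193 of 19974 had one inside. Lists of 13 to 28 genes would often hold none at such shares, so these zeros are no result about the lists. Only 1.63% of all 7A peaks lacked a partner. Of the MAX network, which comprises the partners and antagonists of MYC and MAX, 10 of 13 genes had a 7A peak at an end, all with a partner. The same held for 26 of 28 ribosome assembly and translation genes, the best known MYC targets, and for 20 of 25 p53 targets. It held for 17 of 25 AP-1 and TEAD factors, 11 of 17 circadian clock genes and 9 of 27 bone lineage genes.

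Distance to the other lists was next. The nearest WT or 3A peak was at a median of 12666 bp (10921 to 15050), with quartiles of 5012 and 32159 bp. It was within 1000 bp for 47 of 411 (11.4%, 8.52 to 14.9) and within 10000 bp for 175 (42.6%). With each peak moved by 20000 bp to either side, 9.25% (7.35 to 11.4) lay within 1000 bp of a WT or 3A peak or on one. The intervals overlap, but by the rule no unmoved 7A-alone peak could lie on such a peak. For 3A-alone peaks, 78 of 800 (9.75%) had a WT or 7A peak within 1000 bp and the median was 11816 bp. Of the 411, 3 had a 3A-alone peak within 1000 bp and 12 within 10000 bp.

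**Figure D4:**
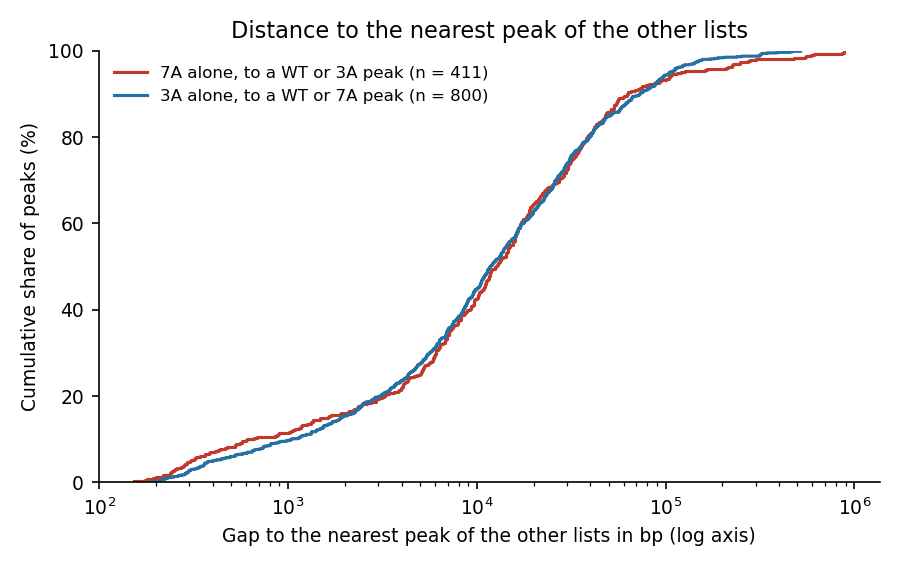
Cumulative percent of peaks by the gap in bp (log axis) to the nearest peak of the other lists, for 7A-alone peaks (n = 411) and, in their own comparison, 3A-alone peaks (n = 800). The curves run close together, with medians of 12666 and 11816 bp, and 11.4% and 9.75% of the peaks lie within 1000 bp.

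The 47 near peaks mostly sat beside sites that the 7A list held as well. Their neighbour was in the WT list for 33 and in the 3A list for 14. At 31 of the 47 that neighbour also held a different 7A peak, so the 7A list had the shared site and a separate peak beside it. At the other 16 the neighbour had no 7A peak of its own. Examples are chr2:1580129-1580418 (fold 14.1), 153 bp from a WT peak of fold 4.52, and the ZNF775 peak, 306 bp from a WT peak of 12.7. The near peaks had a median fold of 7.02, against 7.03 for the other 364, and 13 of the 47 were at gene ends, against 27 of the 364.

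The rule leaves a gap between its edges. The smallest gap of a 7A-alone peak was 153 bp, and the next were 174 bp at CBR3 and 178 bp at chr5:5941621-5941881. On the other side, the smallest contact that kept a 7A peak out was 125 bp, at chr1:76867561-76867840, with a fold of 2.45. By this measure no 7A peak with a partner had a contact under 100 bp, and 14 had one under 200 bp. Smaller overlaps with a further partner were not counted.

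At the other extreme, 28 of the 411 were more than 100000 bp from any WT or 3A peak and 7 more than 500000 bp. The most remote, at chr13:64075842-64076159, was 884808 bp from them, with a fold of 8.11. A peak whose nearest gene, RGS18, was 549761 bp off lay 876892 bp away (fold 9.73), one inside ANO3, a membrane protein of the anoctamin family, 615366 bp away (10.4), and the GRIA3 peak was among these 7. The chr13, RGS18 and GRIA3 peaks, and one nearest to KCNV1, had 29, 35, 27 and 41 fragments. Their background was the lowest value of the list, 2.70, so their folds rest on that floor. All 7 were also more than 500000 bp from any other 7A peak.

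Within 100000 bp of each other, 29 of the 411 formed 14 clusters, of which 13 held 2 peaks. The exception was a cluster of 3 at chr7:100983437-101059657, over the membrane mucin genes MUC12 and MUC17, with folds of 5.04, 7.89 and 10.6. A set of 10 genes held 2 of the peaks each: ASAP1, CDH1, CTBP2, DCAF5, LDLRAD4, MUC12, NFIA, TGFBR3, TMEM132D and TSPAN11. CDH1 encodes E-cadherin, and its peaks had folds of 6.78 and 9.05, 36910 bp apart from outer edge to outer edge.

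In the letters of the promoters printed above and the other windows with a 7A-alone summit, E-boxes were not frequent. Of the 29 windows, 10 held at least 1 of the 6 forms (34.5%, 17.9 to 54.3), against 53.1% of the 7808 windows with another 7A summit and 36.7% of all 35116 windows. Windows of other weak, narrow 7A peaks, with a fold up to 10 and a width under 400 bp, held them in 41.1% (35.5 to 47.0, 299 windows), and windows with a 3A-alone summit in 15.8% (6.02 to 31.2, 38 windows). The canonical CACGTG was in 2 of the 29, LOC107985500 and FLRT2 (6.90%), against 15.04% of windows with another 7A summit and 7.26% of all windows. It was in 8.70% of windows of other weak, narrow 7A peaks and in 7.89% of windows with a 3A-alone summit. In the 10 windows with a form, the nearest was at a median of 28.5 bp from the summit, and within 50 bp in 6. With 29 windows, all of these intervals are wide.

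The AP-1 word TGANTCA, the site of FOS and JUN dimers, was in 7 of the 29 windows (24.1%, 10.3 to 43.5), among them TRIM2, printed above, and RNF43. It was in 4.82% of windows with another 7A summit, in 11.0% (7.72 to 15.2) of those with a weak, narrow one, in 13.2% (4.41 to 28.1) of those with a 3A-alone summit and in 7.71% of all windows. The interval for 7A-alone windows lies above that of windows with another 7A summit and overlaps that of weak, narrow peaks. The word was searched on both strands and is not among the 6 E-box forms. The 29 windows had a median GC content of 56.0% and 13 CpG dinucleotides, against 67.0% and 29 in windows with another 7A summit and 58.7% and 14 in all windows. Windows of other weak, narrow 7A peaks had 61.3% and 19, and windows with a 3A-alone summit had 62.2% and 13.5. Base composition moved with these word counts, and its part in them was not tested.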

How the data were processed

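The data are 3 headerless narrowPeak lists, for WT, 3A and 7A MYC. Score, fold enrichment (a linear ratio at the summit) and the −log10 p and −log10 q are the authors' deposited values, and the summit is given as an offset in bp. Per the submitters' processing notes the tools were MACS2, Bowtie2, Picard, SAMtools and cutadapt, and builds mm10, hg38 and hg19 were involved; neither versions nor roles are given. Whether replicates or treatments were pooled, which libraries served as control, and whether mouse reads entered the scaling are points not given in the sources used here. Library depth is therefore unknown. Positions were read as hg38 and are printed counting from 1.

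A partner was any overlap of at least 1 bp. Gene ends are the outer ends of 19974 protein-coding genes on chromosomes 1 to 22 and X in the RefSeq table (GRCh38.p14), and "at a gene end" means a summit within 1000 bp of either. The 11 gene lists hold 301 genes, all matched. Promoter windows on chromosome 8 were not used here, and no other genome sequence was used. Coverage was solved from fold = (t + 1)/(c + 1) and the Poisson −log10 p at a relative tolerance of 1e-05, in the 7A list only, and the solver was tested on simulated data. In the WT and 3A lists the background, not the treatment, came out in whole fragments, so coverage was not compared there. Shares have 95% Clopper-Pearson intervals and medians have order-statistic intervals, which cover counting error only. No p-value was computed. Computation used SciPy 1.17.1, NumPy 2.4.6 and pandas 2.3.3 under Python 3.11.15, with figures from matplotlib 3.10.9.

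Named are the 10 strongest 7A-alone peaks, the 25 strongest at gene ends, those at or in a listed gene (the result of 1 list is not reported here), clusters of at least 3, the smallest gap and contact, and the 6 strongest with a summit in a promoter window. FLNC, GRM2, FSTL5, CBR3, RNF43, the genes holding 2 peaks and the remote peaks were chosen after their values were seen. The members, lists and measures were chosen with earlier results of these data known.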

Additional observations from a re-analysis of the deposited data

How the results depend on the processing

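The count of 411 7A-alone peaks was unchanged when a partner within 100 bp counted as shared, and was 377 within 500 bp and 410 at a −log10 q of at least 10. It was 903 when a partner had to overlap 50% of both peaks, and 1688 when the WT and 3A lists were shortened to the length of the 7A list (−log10 q of at least 43.5 and 22.9). Under these 2 settings the gene-end share was 24.5% and 17.3% and the median fold enrichment 7.61 and 6.49. Both settings admit peaks that touch a deposited partner. The gene-end share was 5.84% with a window of 500 bp and 13.6% for starts of any gene, where all 7A peaks gave 33.9% and 41.9%. It was 12.65% with 2500 bp (all 7A peaks 45.1%) and 7.42% without the 47 peaks near a WT or 3A peak. The last setting and the one on starts were chosen after seeing the data. The share near a WT or 3A peak was 8.27% at 500 bp, 18.25% at 2500 bp, 3.45% once partners within 500 bp counted as shared, and 59.7% with the 50% overlap. In all of these settings the gene-end share stayed below the 39.6% of all 7A peaks, or their share in the same window. No paired analysis was possible because the lists carry no replicate numbers and no value per library; for the same reason no replicate could be left out. With a median of 65 fragments at the summit, a site just below the calling limit in another list cannot be told apart from an unbound one.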
